A study of Mus musculus with 12 samples.

Results

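The comparison described here sets 2 small RNA libraries made from 10 ng of testis RNA against 2 made from 100 ng, all sequenced without periodate treatment, to see which small RNAs change in measured abundance when the input falls. These are 4 of the 12 libraries of the series, 10ng_beforeOxidation_R1 and R2 and 100ng_beforeOxidation_R1 and R2, chosen by their labels alone. The RNA came from whole testis of male C57BL/6 mice aged 4 months, and the libraries covered RNA of 17 to 40 nt made by the method labelled 10ng-seq. The synthetic spike-in RNA scaled with the input, 5e-09 µl at 10 ng and 5e-08 µl at 100 ng. R1 and R2 were technical replicates. All p-values below therefore measure the spread between libraries and say nothing about mice. The 2 libraries of 50 ng entered the fits to estimate that spread.

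MicroRNAs (miRNAs) are short RNAs cut from hairpin precursors by Drosha and Dicer. Each guides an Argonaute protein to messages that match its seed, bases 2 to 8. PIWI-interacting RNAs (piRNAs) are longer, arise from long single-stranded precursors without Dicer, mostly begin with U, and guide PIWI proteins of male germ cells. In the adult testis most of them are pachytene piRNAs, made during meiosis from a limited set of noncoding loci. A sequencing library reports each of these RNAs after adapter ligation, reverse transcription and amplification, and the abundance is given in RPM, the reads of an RNA scaled to a common library size.

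The mature sequences of 6 miRNAs with large movements in opposite directions are shown first, from RefSeq (GRCm38.p6), 5′ to 3′ with the seed in capitals. The first pair has 1 seed and the largest rises at 10 ng on the log2(RPM + 1) scale (by ratio of means miR-151-3p, at 10.3-fold, stands between them), the second pair has 1 seed and fell to different extents, and the last pair also has 1 seed and fell.
miR-125a-5p: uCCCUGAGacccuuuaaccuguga
miR-125b-5p: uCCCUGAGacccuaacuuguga
miR-148b-3p: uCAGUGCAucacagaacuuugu
miR-148a-3p: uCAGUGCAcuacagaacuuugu
miR-93-5p: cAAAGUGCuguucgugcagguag
miR-20a-5p: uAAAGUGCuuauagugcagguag
miR-125a-5p lies at chr17:17830817-17830840 on the plus strand. miR-125b-5p has 2 copies, at chr9:41581940-41581961 and chr16:77646279-77646300. miR-148b-3p lies at chr15:103285185-103285206 and miR-148a-3p at chr6:51269829-51269850.

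The RPM values rested on 2799596 and 2754411 reads at 10 ng and on 2965389 and 3280001 reads at 100 ng, so depth differed little between the inputs. The summed miRNA abundance was 116696 and 119672 RPM at 10 ng against 135591 and 138463 RPM at 100 ng. The summed abundance of the piRNA table moved the other way, 815437 and 812799 RPM against 799156 and 795481 RPM. Neither pair of groups overlapped. With 2 libraries against 2 the exact 2-sided permutation test cannot go below p = 0.333, which it gave for both. With miRNA reads left out of the total, the piRNA table held 92.3% of reads at 10 ng and 92.4% at 100 ng, with ± 0.00879 and ± 0.0837 percentage points (SD, n = 2).

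The complexity of the piRNA table fell at 10 ng, although its summed abundance did not. Thinned to 2000000 piRNA reads, the libraries of 10 ng held 217359 and 207642 distinct sequences and those of 100 ng held 301143 and 291480. The libraries of 50 ng, with 283340 and 287940, were close to those of 100 ng. The share of distinct sequences seen in 1 read was 18.3% and 17.3% at 10 ng against 42.1% and 38.3% at 100 ng. The 1000 most abundant sequences took 26.6% and 27.1% of the piRNA reads at 10 ng and 29.8% and 30.3% at 100 ng. Fewer sequences were thus seen at 10 ng, each in more reads, while the leading sequences held a smaller share. These 3 measures did not overlap between the inputs (exact permutation p = 0.333, the smallest possible).

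Replicates agreed less at 10 ng. Between R1 and R2 the SD of the log2 difference over tested piRNA sequences was 0.72 at 10 ng and 0.49 at 100 ng, and over tested miRNAs it was 0.53 and 0.32. The SD of the log2 fold change between the inputs was larger than these, 0.97 for piRNA sequences and 1.10 for miRNAs. The limma-trend fits pool the spread over all inputs, so their SEs and p-values do not reflect the larger spread at 10 ng.

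Of 1915 miRNA names, 166 had a mean of at least 5 RPM over the 6 libraries and were tested with limma-trend on log2(RPM + 1). At a Benjamini-Hochberg adjusted p below 0.05, 35 were higher at 10 ng (21.1% of those tested) and 89 were lower (53.6%). The median log2 fold change was -0.48, so most miRNAs fell somewhat in RPM. The division into higher and lower depended on the scale. With each library centred on its median miRNA, 55 were higher (33.1%) and 34 lower (20.5%). Quantile normalization called 34 higher and 44 lower, edgeR with TMM called 49 and 52, and DESeq2 called 49 and 39. Scaling to all spike-in reads called 61 and 27, to methylated spike-in reads 47 and 48, and to unmethylated spike-in reads 125 and 3, with a median of 1.12. Among the calls in RPM, 20 miRNAs rose and 33 fell by more than 2-fold, and 7 rose and 5 fell by more than 4-fold.

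**Figure D1:**
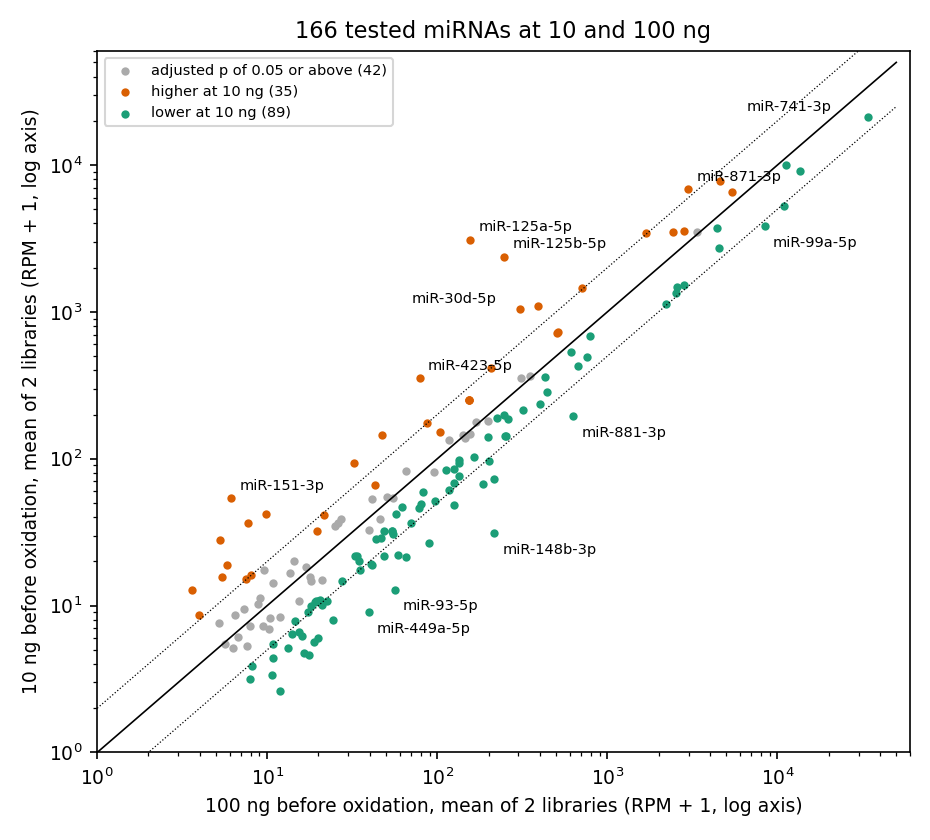
Mean abundance of the 166 tested miRNAs at 10 ng (vertical) and 100 ng (horizontal), each the mean of 2 libraries in RPM + 1 on log axes; the solid line marks equal values and the dotted lines 2-fold differences. Most points lie just below the line, miR-125a-5p and miR-125b-5p stand far above it and miR-148b-3p far below.

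The miR-125 family moved most on the log2(RPM + 1) scale. miR-125a-5p, a miRNA expressed in many tissues, was measured at 3012 and 3186 RPM at 10 ng and at 159 and 151.5 RPM at 100 ng, 20-fold apart. Its 50 ng libraries, at 480 and 439 RPM, lay between. The log2 fold change was 4.31 ± 0.08 (SE; limma-trend adjusted p = 3.37e-83). miR-125b-5p was at 2368 and 2373 RPM at 10 ng, at 587 and 597 RPM at 50 ng and at 254 and 237 RPM at 100 ng, a log2 fold change of 3.27 ± 0.07 (SE). In both miRNAs the 3 inputs did not overlap and abundance fell at each step up in input. Both carry the seed CCCUGAG, and position by position from the 5′ end, counted from 1, they differ at 7 places, all from U14A onward.

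The other largest rises came from several families. miR-30d-5p was at 1038 and 1037 RPM at 10 ng against 296 and 318 RPM at 100 ng, 3.38-fold higher. miR-423-5p was at 306 and 396 RPM against 81.3 and 74.4 RPM, 4.51-fold higher. Its partner from the same hairpin, miR-423-3p, rose from 8.77 and 4.57 RPM at 100 ng to 37.2 and 34.1 RPM. The groups did not overlap in any of these. miR-151-3p rose from 4.72 and 5.49 RPM to 56.8 and 48.7 RPM, miR-92b-3p from 2.70 and 5.79 RPM to 25.7 and 28.0 RPM, and miR-191-3p from 4.38 and 5.18 RPM to 23.6 and 11.98 RPM. miR-202-3p, from a hairpin known in gonadal somatic cells, rose from 8.77 and 8.84 RPM to 35.01 and 47.6 RPM. miR-375-3p, known from endocrine and epithelial cells, rose from 46.2 and 45.7 RPM to 129 and 160 RPM. All 10 of these rises, miR-125a-5p and miR-125b-5p included, kept their direction and passed the test under each scaling, pseudocount, filter, tool and left-out library in which they were tested.

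The largest fall was of miR-148b-3p, which stood at 26.4 and 34.1 RPM at 10 ng, 117 and 112 RPM at 50 ng and 222 and 210 RPM at 100 ng (log2 fold change -2.80 ± 0.15, SE; 7.13-fold lower). The 3 inputs did not overlap. miR-93-5p fell from 58.3 and 51.8 RPM at 100 ng to 16.4 and 7.26 RPM at 10 ng, and miR-20a-5p from 82.6 and 93.0 RPM to 31.8 and 19.6 RPM. Both belong to the miR-17 seed family, known for promoting proliferation. miR-449a-5p, which shares its seed with miR-34 and acts in spermatogenesis and in ciliated cells, fell from 37.4 and 39.6 RPM to 10.0 and 6.17 RPM. A further 3 falls were of miRNAs encoded in the X-linked cluster expressed in testis. Of these, miR-881-3p fell from 622 and 631 RPM to 196 and 195 RPM, miR-883a-3p from 67.1 and 61.9 RPM to 23.9 and 16.7 RPM, and miR-463-3p from 17.9 and 19.8 RPM to 4.29 and 5.81 RPM. miR-101b-3p, miR-30c-2-3p and miR-467a-5p, all under 25 RPM at 100 ng, completed the 10 largest falls with log2 fold changes of -1.86, -1.98 and -2.01. These 10 kept their direction under each alternative in which they were tested. Scaled to unmethylated spike-in reads, 8 of the 10 no longer passed the test and miR-881-3p was near 0 at -0.02, while miR-148b-3p (-1.17) and miR-93-5p (-0.64) had the largest values left.

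**Figure D2:**
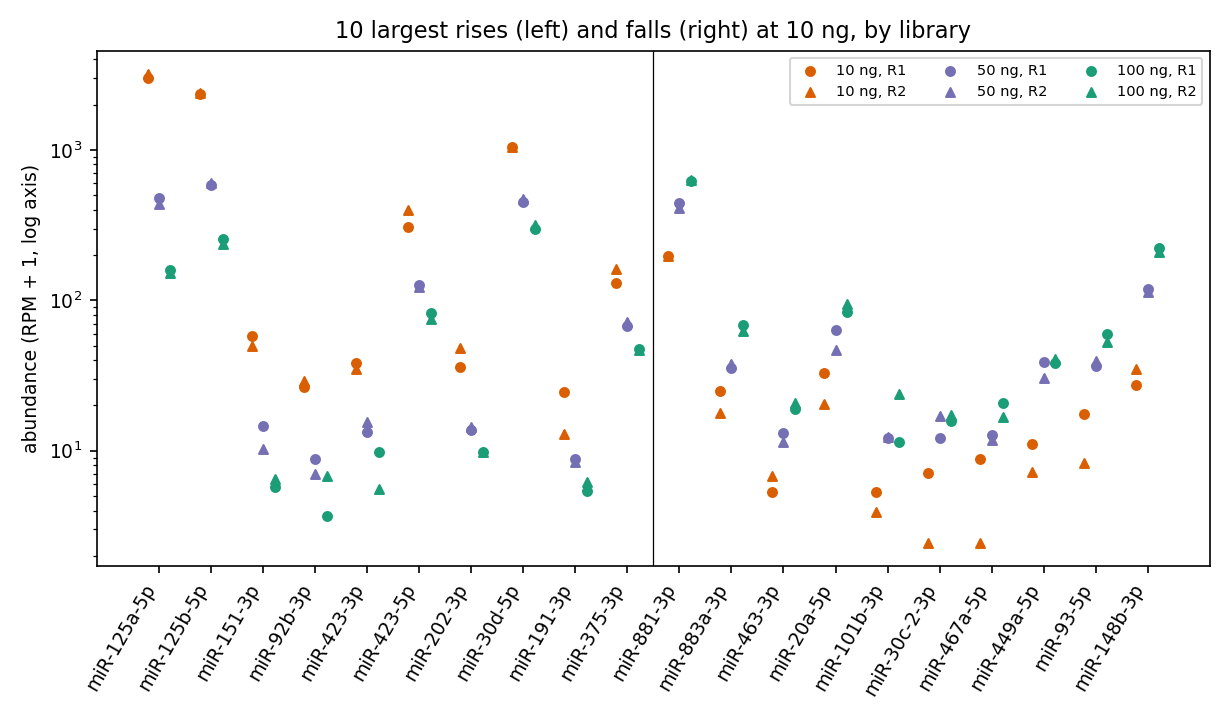
Abundance in RPM + 1 (log axis) of the 10 largest rises and the 10 largest falls among miRNAs with a mean of at least 10 RPM, with 1 point per library; colours give the input and symbols the replicate. The 10 ng points lie above all 100 ng points on the left and below them on the right, and the 50 ng points lie between for most.

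The 10 most abundant miRNAs did not all move in 1 direction. miR-741-3p, the highest, belongs to the X-linked cluster and fell from 33938 and 33834 RPM at 100 ng to 20428 and 21811 RPM at 10 ng. miR-143-3p, known from smooth muscle, fell from 13414 and 13611 RPM to 8933 and 9176 RPM. miR-871-3p, an X-linked cluster member, rose from 2860 and 3100 RPM to 6981 and 6761.2 RPM, and miR-470-5p from the same cluster rose from 4404 and 4762 RPM to 7788 and 7830 RPM. In no case did the inputs overlap. The log2 fold changes were -0.68 ± 0.04 for miR-741-3p, -0.58 ± 0.05 for miR-143-3p, 1.21 ± 0.05 for miR-871-3p and 0.77 ± 0.05 for miR-470-5p (SE). At 10 ng miR-871-3p and miR-470-5p stood above miR-100-5p, at 5104 and 5365 RPM, whereas at 100 ng miR-100-5p was at 10349 and 11400 RPM and stood above both. miR-10b-5p, at 9822 and 10197 RPM against 10952 and 11575 RPM, fell by 0.17 on the log2 scale in RPM and rose by 0.29 when libraries were centred.

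Members of 1 family could move in opposite directions. The let-7 family, which restrains growth and marks differentiated cells, had 10 tested members. Of these 6 rose and 2 fell, against 21.1% and 53.6% over all tested miRNAs. The median log2 fold change was 0.77 against -0.48 over all tested miRNAs. Centred, 8 rose and 2 fell, against 33.1% and 20.5% of all tested. These names include let-7d-3p, a rise, which does not carry the family seed. The mature sequences of 4 members differ by few bases, as shown here from RefSeq with the seed in capitals.
let-7a-5p: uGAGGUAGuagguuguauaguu
let-7c-5p: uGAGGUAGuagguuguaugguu
let-7b-5p: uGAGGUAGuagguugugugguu
let-7g-5p: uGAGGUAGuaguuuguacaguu
Against let-7a-5p, let-7c-5p has the change A19G, let-7b-5p has A17G and A19G, and let-7g-5p has G12U and U18C. let-7a-5p was at 3552 and 3468 RPM at 10 ng and 2518 and 2316 RPM at 100 ng (log2 fold change 0.54 ± 0.06, SE). let-7c-5p was at 3453 and 3476 RPM against 1780 and 1588 RPM (1.04 ± 0.06), and let-7b-5p at 1076 and 1129 RPM against 395 and 386 RPM (1.496 ± 0.08). let-7g-5p went the other way, 1589 and 1434 RPM against 2783 and 2843 RPM (-0.90 ± 0.06), as did let-7i-5p (-0.77 ± 0.09). let-7f-5p, at 3492 and 3509 RPM against 3406 and 3303 RPM, did not pass the test (adjusted p = 0.297, limma-trend). At 100 ng let-7g-5p exceeded let-7a-5p and let-7c-5p, and at 10 ng the order was the opposite. How reads matching several of these near-identical sequences were divided is not described in the labels or tables, so single let-7 values are uncertain to that extent.

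The family counts that follow are to be read against 53.6% lower and 21.1% higher over all tested miRNAs. Those of miR-30 and of miR-17-92 and its paralogous clusters are near these shares. The miR-10, miR-99 and miR-100 family fell in RPM in all 5 tested members, with a median of -0.73. Centred, 3 stayed lower and 2 turned higher, against 20.5% and 33.1% of all tested. miR-99a-5p, at 3752 and 3892 RPM against 8038 and 8796 RPM, and miR-100-5p fell most, by 1.14 and 1.05 on the log2 scale, and they differ at 1 base, U16A. In the miR-148 and miR-152 family all 3 fell, miR-148a-3p by 0.79 and miR-148b-3p by 2.80. These 2 differ by C9U and U10C, just after the seed. In the miR-30 family 1 of 9 tested members rose, miR-30d-5p, and 5 fell, among them miR-30a-5p by 0.90. The 9 include 4 names of 3p arms without the family seed, of which miR-30c-2-3p fell and the others were not called. Of the 8 tested members of the miR-17-92 and paralogous clusters 2 rose, miR-92a-3p and miR-92b-3p with log2 fold changes of 1.04 and 2.47, and 5 fell. Of the miR-34 and miR-449 family, which acts redundantly in spermatogenesis, miR-34b-3p, a 3p arm without the family seed, rose with a log2 fold change of 0.55, while miR-34c-5p fell by 0.97 and miR-449a-5p fell by 2.15. Scaled to unmethylated spike-in reads, the falls of miR-99a-5p, miR-100-5p, miR-148a-3p, miR-30a-5p and miR-34c-5p became rises of 0.52, 0.61, 0.87, 0.76 and 0.69, while miR-148b-3p and miR-449a-5p stayed below 0.

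**Figure D3:**
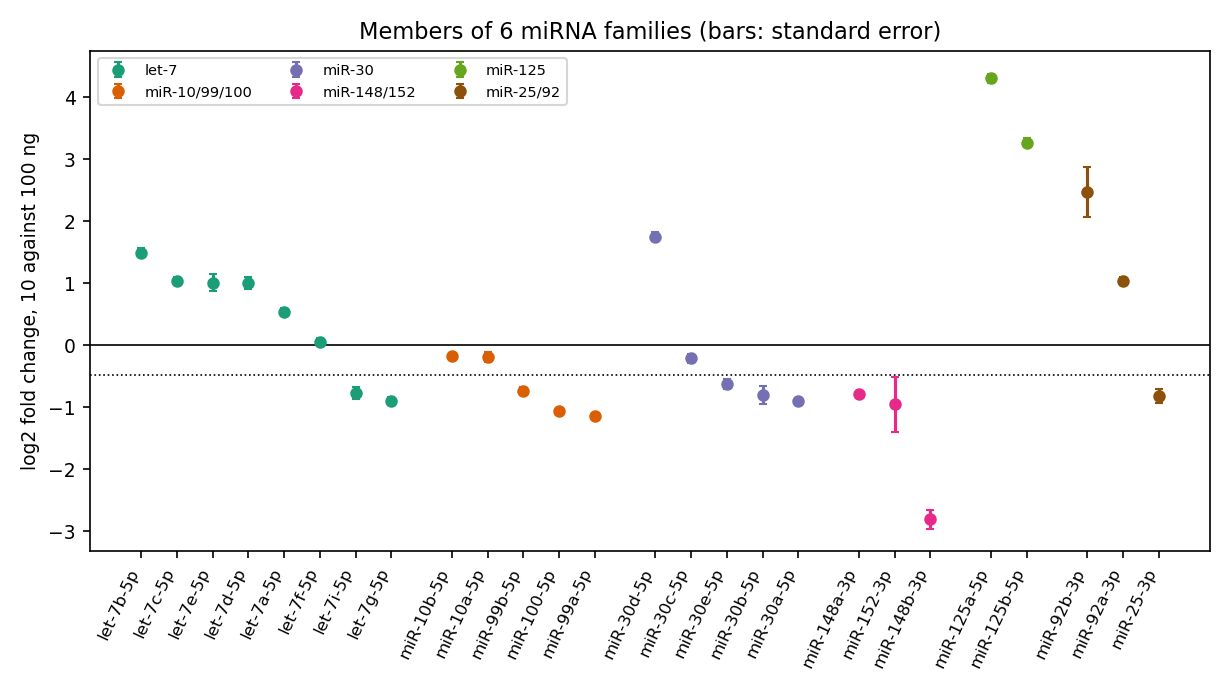
Log2 fold change of 10 against 100 ng for members of 6 miRNA families, with bars of 1 standard error from the fit; the solid line marks 0 and the dotted line the median of all tested miRNAs, -0.48. Members with a shared seed lie on opposite sides of 0 in the let-7, miR-30 and miR-25/92 groups.

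miRNAs that lie next to each other in the genome, and are known to be cut from shared transcripts, parted as well. On chromosome 17 miR-99b-5p (chr17:17830194-17830215), let-7e-5p (chr17:17830366-17830387) and miR-125a-5p follow each other on the plus strand, and their log2 fold changes were -0.73, 1.01 and 4.31. On chromosome 16 miR-99a-5p (chr16:77598940-77598961), let-7c-5p and miR-125b-5p had -1.14, 1.04 and 3.27, although let-7c-5p and miR-125b-5p each have a second copy elsewhere. On chromosome 9 miR-100-5p (chr9:41531437-41531458), let-7a-5p and the other copy of miR-125b-5p had -1.05, 0.54 and 3.27, where let-7a-5p also has copies elsewhere. In each of these 3 clusters the miR-99 or miR-100 member was lowest, let-7 between and miR-125 highest, and miR-125b-5p counts in both of its clusters. The differences between neighbours were not themselves tested.

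The 2 arms of a hairpin also gave different answers, and their ratio cancels the scale of a library, the pseudocount aside. Of 24 hairpins with both arms tested, the ratio of the 5p to the 3p arm was higher at 10 ng in 2 (8.33%) and lower in 12 (50% of those tested) by limma-trend. miR-202 moved most. Its 5p arm fell from 191 and 178 RPM at 100 ng to 70.0 and 62.1 RPM at 10 ng while its 3p arm rose, so that the log2 ratio changed by -3.56 ± 0.27 (SE). For miR-151 the log2 ratio changed by -2.63 ± 0.31 and for miR-871 by -1.99 ± 0.26, with miR-871-5p lower and miR-871-3p higher at 10 ng. For miR-423 both arms rose and the ratio changed by -0.16 ± 0.32 (adjusted p = 0.644). The arms of miR-202 are shown because they differ most in response.
miR-202-5p: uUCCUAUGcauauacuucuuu
miR-202-3p: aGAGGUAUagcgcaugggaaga
The rising 3p arm has a GC content of 50% and the falling 5p arm 28.6%. The hairpins miR-465a, miR-465b and miR-465c share their 3p value, so they are not independent of each other.

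Of the 166 tested miRNAs, 144 matched 1 RefSeq sequence and 22 did not. Over all 144, 20.8% rose and 54.9% fell, with a median of -0.48. Among them, those richer in G and C had higher fold changes. Of 33 miRNAs with a GC content of 20 to under 40%, 1 rose and 21 fell, with a median of -0.68. Of 71 with 40 to under 50%, 15 rose and 43 fell (median -0.46), near the shares over all 144. Of 30 with 50 to under 60%, 10 rose and 12 fell (median -0.03), and of 10 with 60% or more, 4 rose and 3 fell (median 0.58). Across these miRNAs the Pearson correlation of log2 fold change with GC content was 0.30 (Spearman 0.26). The points share the same 4 libraries and many share a seed, so this is a description only.

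Among other lists of clusters and families, both members of miR-125 rose. Of the 5 names of miR-151, miR-28 and miR-423 4 rose and 1 fell (median 2.15), and of 3 names of miR-191 and miR-425 2 rose. The lists that follow are to be read against 53.6% lower and 21.1% higher over all tested miRNAs, which several do not exceed. The falls were 3 of 4 tested names of miR-15 and miR-16, 4 of 5 of the miR-23, miR-27 and miR-24 clusters, and 4 of 5 of the Dlk1-Dio3 cluster, with no rise. Of miR-26, miR-101, miR-103 and miR-107 4 of 5 fell and 1 rose, of miR-181 2 of 3 fell, of the miR-183, miR-96 and miR-182 cluster 1 of 3 fell, and the 1 tested name of miR-29 fell. Of atypical miRNAs 1 of 3 fell, and of repeat and piRNA-overlapping entries 3 of 7 fell and 1 rose. No name of the miR-290-295 cluster reached the minimum. Centred, 1 of the miR-15 and miR-16 names, 1 of the miR-23, miR-27 and miR-24 names and none of the Dlk1-Dio3 names stayed lower.

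The miRNA lists for cell types moved as follows in the same fit. Of 26 tested names of the X-linked testis cluster, which marks germ cells, 5 rose and 17 fell (median -0.60), near the shares over all tested miRNAs (21.1% and 53.6%, median -0.48), and centred 8 rose and 5 fell. Of its 5 rises 3, miR-465a-3p, miR-465b-3p and miR-465c-3p, hold 1 identical value in each library and are 1 measurement. The list summed to 42020 to 43245 RPM at 10 ng and 49587 to 49739 RPM at 100 ng. Vessel and muscle markers, mainly miR-143-3p, summed to 9209 to 9430 RPM against 13763 to 13941 RPM, with 4 of 6 tested names lower and none higher. Sertoli and gonadal somatic markers summed to 279 to 288 RPM against 471 to 508 RPM, with 5 of 8 lower and 1, miR-202-3p, higher. The falls of miR-199a-3p and miR-199b-3p among these are 1 measurement, as their values are identical. Epithelial markers summed to 462 to 499 RPM against 511 to 547 RPM, with 4 of 5 lower and miR-375-3p higher. Blood cell markers summed to at most 11.1 RPM and the liver marker miR-122 to at most 6.07 RPM in these 4 libraries, and none was tested. Of the 16 names of the blood list 8 were at 0 in all 6 libraries. The part of these lists in the other results was not tested. The inputs differ in the amount of testis RNA taken, so these shifts are not read as changes in cells or in RNA per cell. For a single level, the number of cells of a type and the RNA per cell cannot be told apart in whole tissue.

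The spike-ins, whose amount scaled with the input, fell relative to the testis RNA at 10 ng. There were 3 plain RNAs (sp1, sp2, sp3) and 3 that carry Me in their names, read here as methylated. sp3 gave 919 and 1072 RPM at 10 ng against 3600 and 3675 at 100 ng, 3.65-fold lower. sp1Me, from 39 and 30 reads at 10 ng, gave 13.9 and 10.9 RPM against 68.8 and 58.5, 5.13-fold lower. sp1, sp2 and sp3Me were 2.16-fold, 2.33-fold and 2.01-fold lower. sp2Me, which made most of the spike-in reads, gave 10615 and 10006 against 12809 and 12435 RPM, 1.22-fold lower. Fitted together with the miRNAs (172 features, 54.7% lower, 20.3% higher and 75% either way), all 6 passed the test as lower, and none overlapped between the inputs. As shares of all spike-in reads, sp2Me was higher at 10 ng and the other 5 were lower. The spike-ins thus did not move together, and a scale drawn from them depends on which are used.

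**Figure D4:**
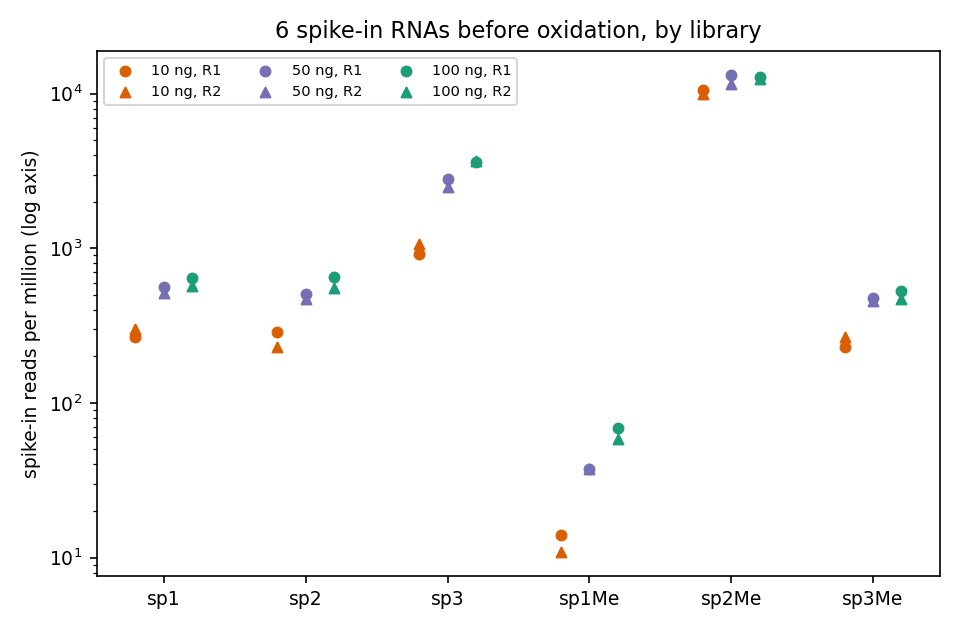
RPM (log axis) of the 6 spike-in RNAs in each library before oxidation, coloured by input with 1 symbol per replicate. Each spike-in is lowest at 10 ng, with sp1Me 5.13-fold and sp2Me 1.22-fold below the level at 100 ng.

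Of the 1018402 sequences in the piRNA table, 20597 had a mean of at least 5 RPM and were tested. At 10 ng 3605 were higher (17.5%) and 3041 lower (14.8%), with a median log2 fold change of 0.00. Among the calls 2740 rose and 1956 fell by more than 2-fold. The sequences called higher together went from 81739 and 80110 RPM at 100 ng to 174281 and 180611 RPM at 10 ng, a description of how much of the table they hold, since the calls rest on the same values. Scaled to all spike-in reads, 6922 were higher and 879 lower, to methylated spike-in reads 5143 and 1482, and to unmethylated spike-in reads 15856 and 111. With the 6 oxidized libraries in the same fit, 448 were higher and 263 lower. Without R1 of 100 ng 1493 were lower, and without R2 of 100 ng 2258 were higher and 1430 lower.

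The 10 piRNA sequences shown have a place in the exons of 1 noncoding gene or pseudogene of GENCODE M21 (GRCm38) and are given 5′ to 3′ as DNA letters as deposited. The first 2 are among the 4 most abundant. The next 4 rose and the last 4 fell, and these 8 were picked after their values were seen. They are the largest rises and falls among part of the 544 sequences of at least 20 RPM placed in 1 gene. Sequences on protein-coding transcripts, and some others of the 544, were left out of this choice and are not shown. Larger changes may thus exist among the 544. Capitals mark ACCCC or CCCTG on the sequence strand, 5-base words described further on.
Gm21269: tatgtgaatttcaactgttggctccacagg
Gm14244: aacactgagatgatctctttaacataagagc
Gm10010: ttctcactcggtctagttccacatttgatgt
Gm10505: tgagaattcatgcagcttgcccagtg
1700020N18Rik: attccaaccaggcctgaaccctctgcat
Gm49794: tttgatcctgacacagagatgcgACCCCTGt
Gm21221: tgggactaaaacaaaaaccttcttatattt
Gm48451, antisense: tattaaaagattttaatatcaggactgaca
Gm48451, antisense, 1 nt shorter: tattaaaagattttaatatcaggactgac
4933440M02Rik: tgattgtagatcgtgatgcacagtgcagt
The Gm21269 sequence lies at chr7:73824992-73825021 in exon 1 of a lincRNA, and the Gm14244 sequence at chr2:127692460-127692490 in exon 1. The rises lie at chr6:128189207-128189237 (Gm10010), chr17:27342760-27342785 (Gm10505), chr1:91404930-91404957 (1700020N18Rik) and chr17:27359272-27359302 (Gm49794). The falls lie at chr5:149802078-149802107 (Gm21221), chr10:86573242-86573271 and chr10:86573243-86573271 (opposite to the pseudogene Gm48451), and chr7:125332100-125332128 (4933440M02Rik).

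The most abundant sequence of the table, from Gm21269, was at 3418 and 3584 RPM at 10 ng and at 6535 and 6185 RPM at 100 ng (log2 fold change -0.86 ± 0.03, SE). The Gm14244 sequence was at 1647 and 1540 RPM against 3109 and 3031 RPM (-0.95 ± 0.05). The other two of the 4 most abundant, which matched no transcript, also fell, by 0.77 and 1.30 on the log2 scale. The Gm10010 sequence was at 70.4 and 81.0 RPM at 10 ng and 7.08 and 5.79 RPM at 100 ng, 11.8-fold higher. The Gm49794 sequence was at 64.7 and 65.7 RPM against 10.5 and 13.1 RPM. The Gm21221 sequence was at 7.14 and 10.2 RPM at 10 ng and 63.4 and 63.7 RPM at 100 ng, 7.34-fold lower. The longer Gm48451 sequence was at 17.9 and 31.6 RPM against 162 and 158 RPM, and the form 1 nt shorter was at 7.14 and 7.99 RPM against 38.1 and 44.8 RPM. In each of these the inputs did not overlap, and the 50 ng libraries lay between. The GC content was 41.9% to 53.6% in the 4 rises and 23.3% to 44.8% in the 4 falls.

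Over all sequences the largest rises and falls matched no transcript and are given by length and first 6 bases. The 31-nt sequence beginning TGCACC was at 75.7 and 69.7 RPM at 10 ng and at 1.01 and 0.305 RPM at 100 ng, the latter 3 reads and 1 read. The 25-nt sequence beginning TGAGAT was at 150 and 162 RPM against 9.11 and 8.54 RPM. The 31-nt sequence beginning TCTTAG fell from 337 and 269 RPM at 100 ng to 13.2 and 14.2 RPM at 10 ng, a log2 fold change of -4.36 ± 0.16 (SE), the largest fall. The 26-nt sequence beginning TGGTGA fell from 87.7 and 78.0 RPM to 7.50 and 6.53 RPM. In all 4 the groups were far apart relative to their replicates.

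Summed over sequences of 24 to 32 nt matched to 1 gene, 125 gene sums reached 50 RPM, of which 40 were higher at 10 ng (32%) and 26 lower (20.8%), 52.8% in all. The median log2 fold change was 0.04 and the range -1.19 to 0.80, narrower than for single sequences. The highest sum, of Gm21269 (chr7:73816546-73838898), fell from 15418 and 15016 RPM at 100 ng to 11867 and 11857 RPM at 10 ng, over 6618 sequences. It includes the most abundant sequence of the table, which fell from 6535 and 6185 RPM to 3418 and 3584 RPM. That sequence made up most of the fall of the sum, and the rest of the sum was not tested apart from it. Gm10619, the lincRNA that starts beside Gm21269 on the opposite strand (chr7:73781429-73816503), was at 2946 and 2881 RPM at 10 ng against 2878 and 2839 RPM and did not pass the test (log2 fold change 0.03 ± 0.03, SE; adjusted p = 0.463, limma-trend). Gm45006, a short gene model within the span of Gm10619 on the same strand (chr7:73797603-73798292), rose most, from 89.0 and 104 RPM to 168 RPM in both libraries. 1700001L05Rik on chromosome 15 fell from 7788 and 8059 RPM to 6174 and 6036 RPM. Gm49794 on chromosome 17 rose from 6459 and 6608 RPM to 7181 and 6966 RPM. In these sums the inputs did not overlap.

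The other sums named by the rule were of protein-coding genes or antisense to annotated genes. Sums over 4933414I15Rik and Cdc42ep3 rose by 0.75 and 0.74 on the log2 scale. Sums antisense to Gm48451 and to Zfp280b fell by 1.19 and 1.05, and the sum over Exoc8, which encodes a subunit of the exocyst that tethers secretory vesicles, fell by 0.78. The Gm48451 sum fell from 394 and 371 RPM to 141 and 198 RPM and includes the 2 antisense forms shown above. The longer form fell from 162 and 158 RPM to 17.9 and 31.6 RPM. The shorter form fell from 38.1 and 44.8 RPM to 7.14 and 7.99 RPM. Over all 125 sums 32% rose and 20.8% fell (median 0.04). Of 32 antisense sums 5 rose and 13 fell (median -0.12). Of 47 sense sums over protein-coding genes 8 rose and 8 fell (median -0.01), and of 46 sense sums over other genes 27 rose and 5 fell (median 0.17). Without R2 of 100 ng 24 sums were higher and 16 lower.

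The make-up of the piRNA table shifted with input, in small steps that exceeded the spread between libraries. Of 74 classes of length, end base, base 10 and GC content, 33 took a larger share of abundance at 10 ng (44.6%) and 23 a smaller one (31.1%). By abundance each length from 23 to 28 nt rose and each from 30 to 35 nt fell, with 29 nt, at 18.2% and 18.1% of abundance, not passing the test (adjusted p = 0.390, limma-trend). The share of 26 nt was 7.47% ± 0.00268 at 10 ng and 6.86% ± 0.0188 at 100 ng (SD, n = 2). The share of 31 nt was 15.1% ± 0.0622 against 16.1% ± 0.0546. In the testis lengths near 26 to 27 nt are known for MILI-bound and near 30 nt for MIWI-bound piRNAs, and no protein was measured here. The share beginning with U, the piRNA hallmark, was 88.4% at 10 ng and 88.5% at 100 ng and overlapped between the inputs. An A at position 10, the mark of the ping-pong cycle, was in 33.7% and 34.0%, which did not pass the test (adjusted p = 0.0744). With each distinct sequence counted once the lengths gave another pattern. Then 29 nt and 30 nt rose, with log2 ratios of 0.03 and 0.04, and 31 nt, 23 nt and 26 nt did not pass the test (adjusted p = 0.524, 0.620 and 0.203). A at position 10 fell by 0.015 on the log2 scale (adjusted p = 0.0237).

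GC content moved most among these classes. Sequences of 20 to under 30% GC fell from 4.92% of abundance at 100 ng to 3.52% at 10 ng, and those of 30 to under 40% from 28.7% to 25.7%. Those of 50 to under 60% rose from 18.7% to 22.1%, and those of 60 to under 70% from 1.51% to 2.08%. The log2 ratio of the share went from -1.14 ± 0.05 in the lowest bin to 0.46 ± 0.01 in the highest (SE). The lowest bin, of 10 to under 20% GC, held only 0.194% of abundance at 100 ng and 0.0882% at 10 ng. The order of the 6 bins was the same with each distinct sequence counted once, from -0.81 to 0.25. Counted that way, 35 of the 74 classes were lower.

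**Figure D5:**
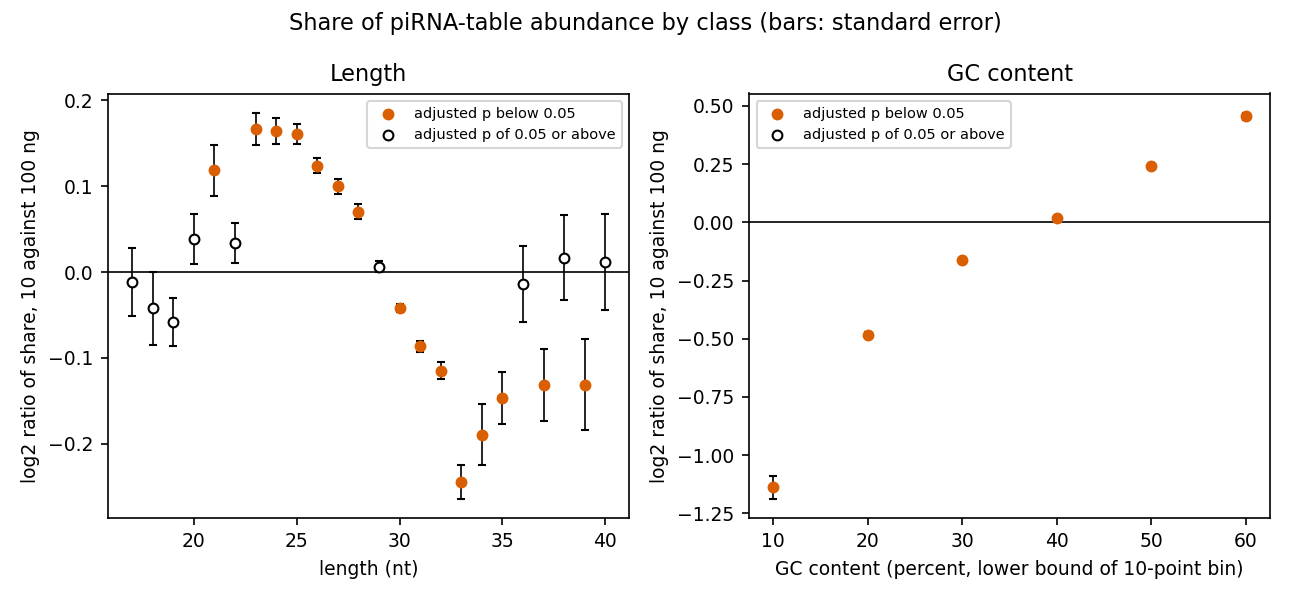
Log2 ratio, 10 against 100 ng, of the share of piRNA-table abundance in each length (left) and in each bin of GC content (right), with bars of 1 standard error; filled points passed the test. The ratio is above 0 from 23 to 28 nt and below 0 from 30 to 35 nt, and it climbs with GC content from -1.14 to 0.46.

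The same held for single sequences. Of 907 tested sequences with 20 to under 30% GC, 5.29% rose and 25.7% fell (median -0.45), against 17.5% and 14.8% of all tested. Of 4185 with 50 to under 60% GC, 23.9% rose and 9.63% fell (median 0.23). Across the 20597 sequences the Pearson correlation of log2 fold change with GC content was 0.20 (Spearman 0.19), and with length -0.05. These points share libraries, and sequences overlap one another. Of 890 words of 5 bases found in at least 100 tested sequences, ACCCC (131 sequences, 0.636% of those tested) had the highest median, 0.87, and CCCUG (310 sequences, 1.51%) the next, 0.71. Of the sequences with CCCUG 134 rose and 18 fell. UUUUU (576 sequences, 2.80%) had a median of -0.35, with 55 that rose and 145 that fell. Words overlap each other and were picked by their values. miR-125a-5p and miR-125b-5p also hold CCCUG, at the start of the seed, and miR-10a-5p and miR-10b-5p, which hold it too, fell in RPM. The fifth miRNA that holds it, miR-351-5p, was not called in RPM. Centring raises the log2 fold change of every miRNA by the same amount, and 33.1% of all tested miRNAs were then called higher. Centred, all 5 were higher. The log2 fold change of miR-10a-5p went from -0.19 to 0.27 and that of miR-10b-5p from -0.17 to 0.29, and miR-351-5p was at 1.29.

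Sequences that share their first 20 nt moved alike. There were 12733 such sequences in 4407 families, and the SD of their log2 fold change was 0.95 over all and 0.63 within families. In 6152 pairs of tested sequences that differ by 1 nt at the 3′ end, the longer form was higher in 49.8%, with a median difference of 0.00. Where the added base was G the median difference was 0.14 (714 pairs), and where it was U it was -0.07 (2466 pairs). Overlapping sequences of 1 locus share their source and are not replicates.

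Oxidized libraries of the same inputs, which share no library with those above, gave other values. They held fewer distinct piRNA sequences at 10 ng, 59302 and 42603 against 210525 and 188307 at 100 ng. These counts were not thinned to equal depth, and the piRNA reads were 1986353 and 1695105 against 3060976 and 2873009. The tested sequences were chosen by their level in the untreated libraries. The part of depth, of distinct sequences and of this choice in the counts that follow was not tested. After oxidation 668 of the 20597 sequences were higher at 10 ng (3.24%) and 5276 lower (25.6%), with a median of -1.23. Of the 3605 sequences higher before oxidation, 29.4% had a positive log2 fold change after it, as had 27.3% of the 3041 lower ones and 25.6% of all tested. Across sequences the Pearson correlation of the 2 fold changes was 0.11 (Spearman 0.09). The Gm21269 sequence fell in both (-0.86 before and -1.16 after), as did the Gm14244 sequence (-0.95 and -3.08). The interaction of input with oxidation, fitted over all 12 libraries, passed the test for 6788 sequences (33%), 5778 (28.1%) with a higher log2 fold change before oxidation than after and 1010 (4.9%) with a lower one.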

How the data were processed

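Small RNA libraries of 17 to 40 nt were analysed from the authors' deposited tables. The deposited miRNA and piRNA values are RPM, and the deposited spike-in table holds read counts. Per the submitters' processing notes Bowtie was used (version not given) with mm10 and hg38; the sources used here do not give the RPM denominator. It was recovered from the step of 1 read: 100% of piRNA values and 95.4% to 97.2% of miRNA values before oxidation were whole reads within 0.01, the rest being sixths of a read. Values were fitted as log2(RPM + 1) with limma-trend (limma 3.58.1, R 4.3.3) over the 6 libraries before oxidation (3 residual and, by the prior, 111.65 further degrees of freedom for miRNAs and 29.73 for piRNA sequences), with Benjamini-Hochberg adjustment at 0.05 over all features of at least 5 RPM. A fold change on this scale understates that of low features. edgeR 4.0.16 and DESeq2 1.42.0 were run on recovered reads rounded to whole numbers. Single values had an exact permutation test. Sequences of 24 to 32 nt were matched without mismatch to GENCODE M21 transcripts, both strands: 156463 of 676806 matched, 128420 to 1 gene.

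miRNAs were named from those of at least 10 RPM: the 10 highest, the 10 largest rises and 10 largest falls called without overlap, and the 2 highest of each of 25 lists. Of piRNA sequences of at least 20 RPM the 4 highest, 5 largest rises and 5 largest falls were taken, and of gene sums 3 of each kind. Members and lists were chosen with earlier results of these data known. On simulated data limma-trend recovered 57.1%, 100% and 92.3% of miRNAs changed 1.5-fold, 2-fold and 4-fold (40 of 166 changed), and 1.5%, 25.4% and 93.9% of piRNA sequences (200 of 20597). The simulated libraries of all inputs shared the same dispersion, whereas the real replicates agreed less at 10 ng and 74.7% of tested miRNAs were called. The rates may thus differ for the real libraries. Spreads are those between libraries. Sums over annotated genes stand in for genomic windows and were chosen after seeing the data, as no genome sequence was used here.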

Additional observations from a re-analysis of the deposited data

Results flagged for a closer look

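For 7 of the 14 named piRNA sequences the interaction of input with oxidation passed the limma-trend test over all 12 libraries. The threshold was an adjusted p below 0.05, which 33% of the 20597 tested sequences met. Except for the most abundant ones, the 14 were picked as the largest rises and falls in the untreated libraries. The same untreated values enter the interaction, which this choice alone moves up for rises and down for falls. For those rises and falls the test therefore cannot decide whether the change with input differed with oxidation. The value is the log2 fold change before minus that after oxidation. It was 1.11 for the 29-nt sequence beginning TACCTC, 1.20 for the 31-nt sequence beginning TAGGAC and 2.13 for the Gm14244 sequence, which fell before oxidation and more after it. It was 6.47 for the 31-nt sequence beginning TGCACC, 6.13 for the 32-nt sequence beginning TAGCTT and 2.97 for the 32-nt sequence beginning TTAGTG, which were among the largest rises before oxidation. None of these 3 passed the test after oxidation (limma-trend adjusted p = 0.677, 0.320 and 0.218). The oxidized 10 ng libraries of TGCACC were at 18.04 and 0 RPM and those of TAGCTT at 18.5 and 0 RPM, so the size of both values, and for TGCACC the direction after oxidation, rests on 1 library. It was -3.75 for the 30-nt sequence beginning TGATTG, which was among the largest falls before oxidation and did not pass the test after it.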

How the results depend on the processing

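Counts of calls depended on the scale, and the cause was not tested. Of miRNAs, 45 were lower with a minimum of 50 RPM, 44 under quantile normalization, 52 in edgeR with TMM, 39 in DESeq2, 58 with all 12 libraries and 48 scaled to methylated spike-ins. Centred, 55 were higher and 34 lower; scaled to all spike-ins 61 and 27, and to unmethylated ones 125 and 3. Of piRNA sequences, 540 were higher and 679 lower at 50 RPM, where fewer were tested, 448 and 263 with all 12 libraries, 6922 and 879 scaled to all spike-ins and 15856 and 111 to unmethylated ones. Methylated spike-ins left 1482 lower and DESeq2 2002. Leaving out each library in turn gave 2258 to 3767 higher and 1430 to 3505 lower piRNA sequences, 30 to 35 higher and 63 to 86 lower miRNAs, and 24 to 38 higher and 16 to 26 lower gene sums. The lone library left was assumed to vary like the others. As a share of spike-in reads sp2Me had a log2 fold change of 0.28, and piRNA reads as a share of reads other than miRNA reads had a log2 ratio of -0.0011. With each distinct sequence counted once 35 composition classes were lower. Of the values of single features, 1433 kept their direction and side of the threshold, 118 lost and 32 gained a call and 81 turned. Scaled to unmethylated spike-ins these log2 fold changes turned: miR-741-3p 0.98, miR-143-3p 1.08, miR-10b-5p 1.49, miR-100-5p 0.61, miR-99a-5p 0.52, miR-743b-3p 1.40, miR-99b-5p 0.92, miR-34c-5p 0.69, miR-30a-5p 0.76, miR-30c-5p 1.45, miR-25-3p 0.83, miR-16-5p 1.08, miR-15b-5p 0.76, miR-183-5p 0.60, miR-29a-3p 0.96, miR-148a-3p 0.87, miR-425-5p 1.27, miR-27b-3p 1.35, miR-24-3p 1.14, miR-26b-5p 1.19, miR-181a-5p 1.19, miR-181b-5p 0.94, miR-127-3p 1.12, miR-202-5p 0.17, miR-199a-5p 0.84, miR-192-5p 1.16, miR-200a-3p 1.23, miR-1839-5p 0.78, miR-3470a 1.62, TATGTG 0.80, TACCTC 0.89, TAGGAC 0.36, AACACT 0.71. Centred these log2 fold changes turned: miR-10b-5p 0.29, miR-743b-3p 0.20, miR-30c-5p 0.25, miR-425-5p 0.16, miR-27b-3p 0.15, miR-26b-5p 0.0018, miR-181a-5p 0.019, miR-200a-3p 0.045, miR-3470a 0.45. Under quantile normalization these log2 fold changes turned: miR-10b-5p 0.14, let-7f-5p -0.082, miR-425-5p 0.00783, miR-200a-3p 0.10, miR-3470a 0.35. Scaled to all spike-ins these log2 fold changes turned: miR-10b-5p 0.40, miR-743b-3p 0.32, miR-30c-5p 0.36, miR-16-5p 0.0086, miR-425-5p 0.25, miR-27b-3p 0.27, miR-24-3p 0.067, miR-26b-5p 0.11, miR-181a-5p 0.12, miR-127-3p 0.049, miR-192-5p 0.084, miR-200a-3p 0.16, miR-3470a 0.56. Scaled to methylated spike-ins these log2 fold changes turned: miR-10b-5p 0.15, miR-743b-3p 0.061, miR-30c-5p 0.11, miR-425-5p 0.0069, miR-27b-3p 0.012, miR-3470a 0.31. In edgeR with TMM these log2 fold changes turned: miR-10b-5p 0.14, miR-743b-3p 0.051, miR-30c-5p 0.10, miR-27b-3p 0.0011, miR-3470a 0.29. In DESeq2 these log2 fold changes turned: miR-10b-5p 0.21, miR-743b-3p 0.12, miR-30c-5p 0.17, miR-425-5p 0.0698, miR-27b-3p 0.071, miR-3470a 0.36. Leaving out 1 library moved miR-541-5p between -0.23 and 0.42 and miR-3470a between -0.25 and 0.23. The replicate numbers did not pair the samples: deviations of same-numbered libraries at 10 and 100 ng correlated at -0.0045 for miRNAs and -0.02 for piRNA sequences. With the replicate block 35 miRNAs were higher and 84 lower, and 3577 and 3015 piRNA sequences. Sums over genomic windows, with their alternatives, were not run because no genome sequence was used here. At 3 reads a library reaches 0.896 to 1.16 RPM, so lower levels rest on fewer than 3 reads.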
